A study of Homo sapiens with 9 samples.

Results

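The 10 genes described here encode the proteins that start, carry and brake blood coagulation outside the contact pathway. They are F3 (tissue factor), TFPI (its inhibitor), the protease precursors F7, F10 and F2 (prothrombin), the cofactor F5, the anticoagulants PROC (protein C) and PROS1 (protein S), F13B (the carrier subunit of factor XIII) and VTN (vitronectin). They were rows of a count table of 57905 gene identifiers, found by symbol, and they were chosen by their measured values in these same libraries. All comparisons among the groups for these 10 genes are therefore descriptions. Their calls, SE and intervals are printed, their p-values are not, and nothing is supported with them.

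Poly(A) RNA was sequenced from A549 cells, an established line of human lung adenocarcinoma, in a study of how the polyol pathway, which converts glucose to fructose through sorbitol, bears on how aggressive cancer cells are. The shAKR1B1 group (3 libraries) carried a short hairpin RNA that lowers AKR1B1, the aldose reductase that makes sorbitol. The shSORD group (3 libraries) carried one that lowers SORD, the dehydrogenase that turns sorbitol into fructose, and the control group (3 libraries) is titled plko and labelled scrambled. All cells were kept in medium with 5% serum. Each target has 1 hairpin label, and the labels do not settle whether plko cells held a hairpin of scrambled sequence or only an empty vector. The libraries of a group are called biological replicates, but separate transductions are not described, so tests measure the spread between these libraries.

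Liver cells are the main source of most of these proteins in blood. Tissue factor on a cell surface binds the protease made from F7, and this complex turns factor X into its active form. Active factor X, held on a membrane by the cofactor from F5, cuts prothrombin into thrombin, which makes fibrin from fibrinogen and switches on factor XIII to cross-link the clot. TFPI blocks the tissue factor complex together with active factor X, and activated protein C with protein S destroys the cofactor from F5. Vitronectin circulates in plasma, lies in the extracellular matrix and binds integrin receptors on cells. F7, F10, F2, PROC and PROS1 encode vitamin K-dependent proteins, whose glutamates are carboxylated before secretion.

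Total counts ranged from 32436524 to 43044456 per library, and levels are given as CPM, counts per 1e+06 of the TMM-scaled library size. AKR1B1 stood at 145.9, 148.3 and 167.3 CPM in shAKR1B1 libraries, 945.0, 1108.8 and 1135.3 CPM in shSORD libraries and 1456.2, 1395.0 and 1397.2 CPM in plko libraries. SORD stood at 30.4, 30.2 and 31.0 CPM with shAKR1B1, 8.68, 9.0 and 8.18 CPM with shSORD and 44.1, 43 and 41.7 CPM with plko. Each target was lowest in its own knockdown, and the other enzyme was lower there than in plko too. The markers of alveolar cells, the presumed origin of A549, were near absent: SFTPB had 0 counts in every library and the 5 markers summed to at most 0.414 CPM. The 5 epithelial markers were all called higher in both knockdowns by the edgeR test described below. Over all tested genes 27.8% were called higher with shAKR1B1 and 27.5% with shSORD. These 5 markers summed to 11189.0 to 11735.9 CPM with shAKR1B1, 9062.7 to 10824.2 CPM with shSORD and 6693.3 to 6850.9 CPM with plko.

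In both knockdowns the means of all 10 genes lay above plko, though libraries of PROC with shAKR1B1 and of TFPI with shSORD overlapped plko. A gene was called where edgeR's quasi-likelihood test, fitted on 16916 genes, gave a Benjamini-Hochberg adjusted p under 0.05. With shAKR1B1, 9 genes were called higher than plko and PROC was not called, where 27.8% of all tested genes were called higher and 29.6% lower. With shSORD, 9 were called higher and TFPI was not called, where 27.5% of all tested genes were called higher and 29.0% lower. The members' median log2 fold change was 1.88 with shAKR1B1 and 1.92 with shSORD, against medians over all tested genes of -0.00237 with shAKR1B1 and -0.00205 with shSORD. Since these contrasts chose the members, nothing is read from these counts. Both comparisons use the same 3 plko libraries. All 10 genes passed the expression filter, but none of the plko libraries reached its cutoff of 0.254 CPM for F10 and 1 did for F13B, so these genes passed through the knockdown groups.

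Between the knockdowns the members went both ways. TFPI, F7, F5 and F13B were called higher with shAKR1B1 than with shSORD, and F3, PROC and VTN lower, where 15.5% of all tested genes were called higher and 15.1% lower. F10, F2 and PROS1 were not called. Summed over the 10 genes, the level was 374.4 to 415.1 CPM in shAKR1B1 libraries, 264.4 to 322.1 CPM in shSORD libraries and 115.4 to 117.2 CPM in plko libraries. In cultures measured in bulk, more cells that express a gene and more RNA per cell cannot be told apart.

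**Figure D1:**
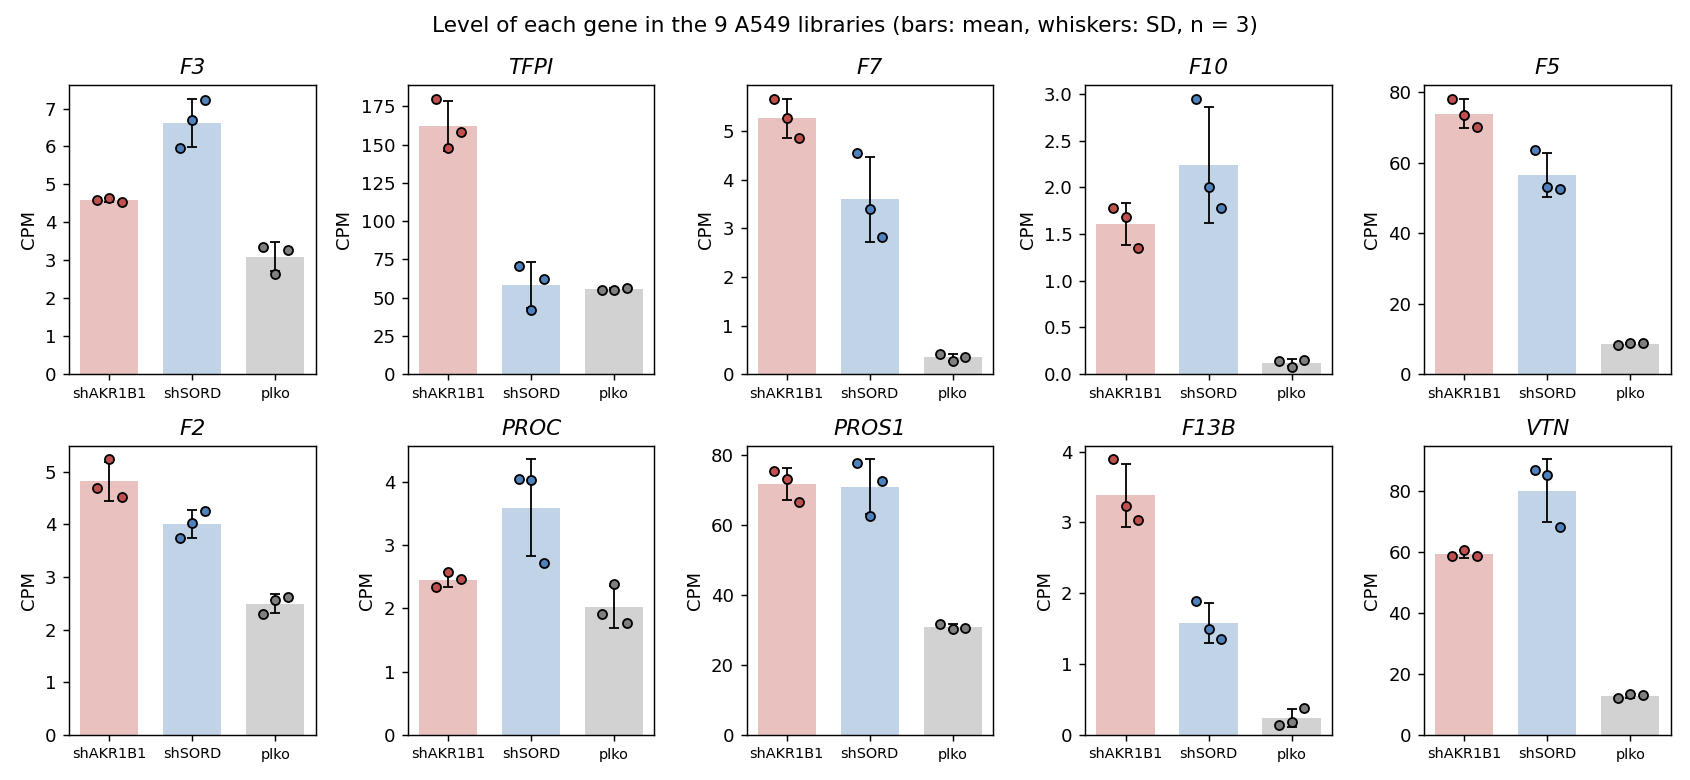
Level of each of the 10 genes in CPM (vertical axis, from 0, scaled per gene) in shAKR1B1, shSORD and plko libraries. Points are libraries, bars are means and whiskers SD (n = 3). F7, F10, F5, F13B and VTN stand in both knockdowns far above plko, TFPI stands apart with shAKR1B1 alone, and F3, F10, PROC and VTN have their highest mean with shSORD.

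For each gene the 250 bases before its RefSeq start (GRCh38.p14) were searched on both strands for 7 short motifs of factors known for liver promoters or for general transcription. The HNF4 motif was spelled CAAAGTCCA, the FOXA motif TGTTTNC and the C/EBP motif TTNNGCAA. The GATA factor motif was spelled AGATAA, the SP1 GC box GGGCGG, the AP-1 motif TGANTCA and the TATA box element TATAAA. Of 35116 windows of the same length, 0.325% held the HNF4 motif, 15.5% FOXA, 9.05% C/EBP, 9.17% GATA, 42.6% the GC box, 6.57% AP-1 and 10.7% the TATA box. Among the 10 genes FOXA was found for TFPI, PROS1 and VTN, C/EBP for PROC and VTN, GATA for VTN, the GC box for F3, PROS1 and F10, AP-1 for F3, and the TATA box for F3 and F13B. A match describes letters and is neither a bound site nor a cause, and these windows were not measured in the cells. Each motif was searched only as spelled here, so a window without a match may still hold a site of other letters. Windows are printed below beside the genes with the largest differences from plko and beside F3, the initiator.

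F3 (ENSG00000117525), the receptor that starts coagulation, was higher in both knockdowns and highest with shSORD. It stood at 4.59, 4.64 and 4.55 CPM in shAKR1B1 libraries, 5.96, 6.7 and 7.22 CPM in shSORD libraries and 3.34, 2.65 and 3.28 CPM in plko libraries. No library of a group overlapped another group. The fitted log2 fold change was 0.57 (SE 0.12) with shAKR1B1 and 1.10 (SE 0.116) with shSORD against plko, and -0.53 (SE 0.11) for shAKR1B1 against shSORD. Its window is GC rich, at 78.0%, and holds GC boxes, a pair of AP-1 matches and TTTATA, the TATA box letters on the opposite strand, all in capitals (chr1:94541760-94542009, minus strand, printed 5′ to 3′ in the direction of the gene):
F3: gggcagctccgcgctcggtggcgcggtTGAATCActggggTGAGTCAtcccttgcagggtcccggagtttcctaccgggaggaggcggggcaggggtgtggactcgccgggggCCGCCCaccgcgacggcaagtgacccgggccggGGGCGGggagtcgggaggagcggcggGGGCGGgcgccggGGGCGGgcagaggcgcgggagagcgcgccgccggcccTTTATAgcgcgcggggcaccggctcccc

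TFPI (ENSG00000003436), the inhibitor of the tissue factor complex, differed between the knockdowns more than any other of the 10 genes in absolute fitted change. It stood at 180.0, 147.7 and 158.4 CPM with shAKR1B1, 70.7, 41.8 and 62.3 CPM with shSORD and 55.1, 55.1 and 56.2 CPM with plko. The shAKR1B1 libraries lay above all others, while the shSORD libraries lay on both sides of plko. Its log2 fold change was 1.55 (SE 0.135) with shAKR1B1, a 2.92-fold difference, and 0.07 (SE 0.135; 95% interval -0.22 to 0.36) with shSORD. The shSORD value rests on shSORD replicate 2: without it the fold change was 0.26 and was called. Set directly against shSORD, shAKR1B1 was higher by 1.48 (SE 0.134; 95% interval 1.19 to 1.76). The antisense gene CALCRL-AS1 shares exon positions with TFPI and stood at 0.764 CPM on average with shAKR1B1, 0.26 CPM with shSORD and 0.364 CPM with plko. With no strand setting stated for the counting, the reads of this pair cannot be told apart.

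The proportion of inhibitor to initiator transcripts differed among the groups. TFPI had 31.9 to 39.2 counts per F3 count in shAKR1B1 libraries, 6.23 to 11.9 in shSORD libraries and 16.5 to 20.8 in plko libraries. The means were 35.3 ± 3.68 with shAKR1B1, 8.92 ± 2.85 with shSORD and 18.1 ± 2.33 with plko (SD, n = 3 each). The ranges of the 3 groups did not overlap: the ratio was above plko with shAKR1B1 and below it with shSORD. Such a ratio within a library does not depend on library scaling, but it compares transcripts of unequal length and says nothing of protein.

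F7 (ENSG00000057593), the protease that tissue factor binds, had several CPM in both knockdowns and stood near the filter's cutoff in plko. It stood at 5.67, 5.28 and 4.87 CPM in shAKR1B1 libraries, 4.56, 3.41 and 2.83 CPM in shSORD libraries and 0.414, 0.265 and 0.356 CPM in plko libraries. Behind these lie 185, 214 and 210 counts with shAKR1B1, 176, 140 and 113 with shSORD and 15, 10 and 14 with plko. Groups did not overlap. The log2 fold change was 3.92 (SE 0.225), or 15.1-fold, with shAKR1B1 and 3.37 (SE 0.235), or 10.4-fold, with shSORD. From summed counts the ratio to plko was 15.2 (95% interval 11 to 21.6) with shAKR1B1 and 10.4 (7.5 to 14.9) with shSORD, intervals that cover counting error only. Between the knockdowns the change was 0.55 (SE 0.152), a call lost without shAKR1B1 replicate 1 (0.50).

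F10 (ENSG00000126218), the precursor of the protease that makes thrombin, was the rarest of the 10 in plko. It stood at 1.78, 1.68 and 1.35 CPM in shAKR1B1 libraries (58, 68 and 58 counts), 2.95, 2.0 and 1.78 CPM in shSORD libraries (114, 82 and 71 counts) and 0.138, 0.0795 and 0.153 CPM in plko libraries (5, 3 and 6 counts). Both knockdowns lay above every plko library. The fitted log2 fold change was 3.65 (SE 0.342), or 12.6-fold, with shAKR1B1 and 4.14 (SE 0.322), or 17.7-fold, with shSORD. Summed counts gave ratios of 12.8 (95% interval 7.44 to 23.9) with shAKR1B1 and 18.1 (10.6 to 33.5) with shSORD. Both ratios divide by the same 14 counts of the plko group, so these intervals are wide and their overlap does not compare the knockdowns. They cover counting error only. For shAKR1B1 against shSORD the change was -0.49 (SE 0.199; 95% interval -0.92 to -0.07) and not called. It was called with the replicate number as a block (-0.47), with no expression filter (-0.50) and without shSORD replicate 3 (-0.64). F10-AS1, on the opposite strand, had 0 counts in all libraries.

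F7 and F10 are adjacent on chromosome 13 in the RefSeq gene order, and their proportion differed among the groups. There were 3.15 to 3.62 F7 counts per F10 count in shAKR1B1 libraries, 1.54 to 1.71 in shSORD libraries and 2.33 to 3.33 in plko libraries. The shSORD libraries lay below the rest, while shAKR1B1 and plko overlapped. MCF2L, a guanine nucleotide exchange factor gene on the other side of F7, had 12.8, 15 and 12.2 CPM with shAKR1B1, 9.06, 8.61 and 6.55 CPM with shSORD and 2.79, 2.04 and 2.29 CPM with plko. Its log2 fold change was 2.49 (SE 0.146, adjusted p = 2.7e-09) with shAKR1B1 and 1.77 (SE 0.151, adjusted p = 1.91e-07) with shSORD. The F7 window holds none of the 7 motifs as spelled, which does not exclude sites of other letters, and the F10 window holds 1 GC box, in capitals on the opposite strand (chr13:113105541-113105790 and chr13:113122549-113122798, both plus strand):
F7: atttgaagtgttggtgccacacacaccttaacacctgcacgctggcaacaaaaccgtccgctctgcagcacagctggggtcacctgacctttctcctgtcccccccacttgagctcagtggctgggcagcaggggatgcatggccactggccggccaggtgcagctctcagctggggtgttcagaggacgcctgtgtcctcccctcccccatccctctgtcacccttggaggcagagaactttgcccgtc
F10: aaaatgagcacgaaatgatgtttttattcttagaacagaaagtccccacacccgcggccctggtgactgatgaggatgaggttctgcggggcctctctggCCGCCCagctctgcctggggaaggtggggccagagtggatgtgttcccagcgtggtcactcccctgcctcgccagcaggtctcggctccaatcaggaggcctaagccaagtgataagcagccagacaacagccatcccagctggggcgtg

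F2 (ENSG00000180210), the gene of prothrombin, changed less. It stood at 4.69, 5.23 and 4.52 CPM with shAKR1B1, 3.73, 4.02 and 4.26 CPM with shSORD and 2.29, 2.57 and 2.62 CPM with plko. All 3 groups were separate. The log2 fold change was 0.95 (SE 0.117) with shAKR1B1 and 0.68 (SE 0.119) with shSORD. For shAKR1B1 against shSORD it was 0.26 (SE 0.11; 95% interval 0.03 to 0.5) and not called after adjustment over all genes. The spread within groups was small, with a coefficient of variation of 7.68% with shAKR1B1, 6.68% with shSORD and 7.11% with plko.

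F5 (ENSG00000198734), the cofactor that holds active factor X on prothrombin, was several fold higher in both knockdowns. It stood at 78.1, 73.6 and 70.0 CPM in shAKR1B1 libraries, 63.6, 53.2 and 52.4 CPM in shSORD libraries and 8.37, 8.7 and 8.8 CPM in plko libraries. Groups did not overlap. Its log2 fold change was 3.10 (SE 0.0863), or 8.56-fold, with shAKR1B1 and 2.71 (SE 0.086), or 6.54-fold, with shSORD, and 0.39 (SE 0.0747) between the knockdowns. With 2090 or more counts in each knockdown library and 303 to 346 in each plko library, these folds are among the most precise of the 10. Per F10 count there were 43.9 to 52.1 F5 counts with shAKR1B1, 21.6 to 29.4 with shSORD and 57.7 to 109.0 with plko, where the plko ratio rests on 3 to 6 F10 counts per library. The shSORD libraries lay below the others in this ratio and shAKR1B1 below plko. Its window holds none of the 7 motifs as spelled (chr1:169586482-169586731, minus strand):
F5: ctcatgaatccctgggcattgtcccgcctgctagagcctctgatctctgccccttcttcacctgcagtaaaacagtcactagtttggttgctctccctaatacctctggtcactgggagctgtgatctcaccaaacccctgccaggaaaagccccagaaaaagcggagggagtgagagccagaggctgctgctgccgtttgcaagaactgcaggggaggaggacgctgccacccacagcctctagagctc

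PROC (ENSG00000115718), the precursor of activated protein C, changed least with shAKR1B1. It stood at 2.33, 2.57 and 2.46 CPM with shAKR1B1, 4.04, 4.02 and 2.71 CPM with shSORD and 1.91, 2.39 and 1.76 CPM with plko. The shAKR1B1 and plko libraries overlapped, while shSORD lay above both, its replicate 3 only a little. The log2 fold change was 0.29 (SE 0.178; 95% interval -0.09 to 0.67), not called, with shAKR1B1 and 0.83 (SE 0.169) with shSORD. Between the knockdowns it was -0.55 (SE 0.164; 95% interval -0.9 to -0.2), but that call was lost without shAKR1B1 replicate 1 (-0.51) or 3 (-0.55) and without shSORD replicate 1 (-0.46) or 2 (-0.46).

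PROS1 (ENSG00000184500), the gene of the cofactor of activated protein C, was raised by nearly the same amount in both knockdowns. Its levels were 75.4, 73.1 and 66.5 CPM with shAKR1B1, 77.7, 62.5 and 72.6 CPM with shSORD and 31.7, 30.2 and 30.6 CPM with plko. The knockdown libraries overlapped each other and lay above plko. The log2 fold change was 1.22 (SE 0.0788) with shAKR1B1 and 1.2 (SE 0.0787) with shSORD. Their difference was 0.02 (SE 0.076), with a 95% interval of -0.15 to 0.18. The pseudogene PROS2P, whose reads could be confused with PROS1, had 0 counts in all 9 libraries. PROS1 had 27.1 to 32.4 counts per PROC count with shAKR1B1, 15.5 to 26.8 with shSORD and 12.7 to 17.4 with plko, so the cofactor moved more than the protease precursor with shAKR1B1.

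F13B (ENSG00000143278), which carries the catalytic A subunit of factor XIII in plasma, was close to absent in plko. It stood at 3.89, 3.23 and 3.04 CPM with shAKR1B1 (127, 131 and 131 counts), 1.89, 1.49 and 1.35 CPM with shSORD (73, 61 and 54 counts) and 0.138, 0.186 and 0.382 CPM with plko (5, 7 and 15 counts). The 3 groups did not overlap. The log2 fold change was 3.8 (SE 0.261), or 14.0-fold, with shAKR1B1 and 2.71 (SE 0.292), or 6.54-fold, with shSORD, and it was 1.10 (SE 0.184) between the knockdowns. Summed counts gave ratios to plko of 14.0 (95% interval 9.49 to 21.6) with shAKR1B1 and 6.6 (4.39 to 10.3) with shSORD. The catalytic subunit gene F13A1 had at most 1 count in any library, so the carrier was measured without its partner. The F13B window is AT rich, with 28.4% GC, and holds the letters of the TATA box motif at bases -64 to -59, in capitals (chr1:197067261-197067510, minus strand):
F13B: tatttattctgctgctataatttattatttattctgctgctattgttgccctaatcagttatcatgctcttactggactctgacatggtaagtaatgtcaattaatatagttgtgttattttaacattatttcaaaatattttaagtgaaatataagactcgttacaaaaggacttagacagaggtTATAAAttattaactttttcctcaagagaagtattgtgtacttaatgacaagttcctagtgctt

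VTN (ENSG00000109072), the gene of the adhesive plasma protein vitronectin, was the highest of the 10 per length of transcript in both knockdowns. It stood at 58.6, 60.8 and 58.6 CPM in shAKR1B1 libraries, 86.9, 85.3 and 68.3 CPM in shSORD libraries and 12, 13.3 and 13.1 CPM in plko libraries. Groups did not overlap, and shSORD was highest. The log2 fold change was 2.21 (SE 0.0894), or 4.64-fold, with shAKR1B1 and 2.65 (SE 0.0897), or 6.27-fold, with shSORD. Between the knockdowns it was -0.43 (SE 0.0806). SARM1, an NAD-cleaving enzyme gene that overlaps VTN on the opposite strand without sharing exon positions, had log2 fold changes of 0.35 (SE 0.0708, adjusted p = 0.000604) with shAKR1B1 and 0.91 (SE 0.0698, adjusted p = 6.49e-08) with shSORD. The VTN window holds 2 GATA matches and 2 C/EBP matches, the second of which runs into a FOXA match in the single run of capitals near the 3′ end (chr17:28370308-28370557, minus strand):
VTN: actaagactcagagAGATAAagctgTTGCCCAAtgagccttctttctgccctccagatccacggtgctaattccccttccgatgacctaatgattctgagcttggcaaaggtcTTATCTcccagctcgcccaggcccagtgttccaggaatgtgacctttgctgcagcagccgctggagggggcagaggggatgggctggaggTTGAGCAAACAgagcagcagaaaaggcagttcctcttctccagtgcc

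**Figure D2:**
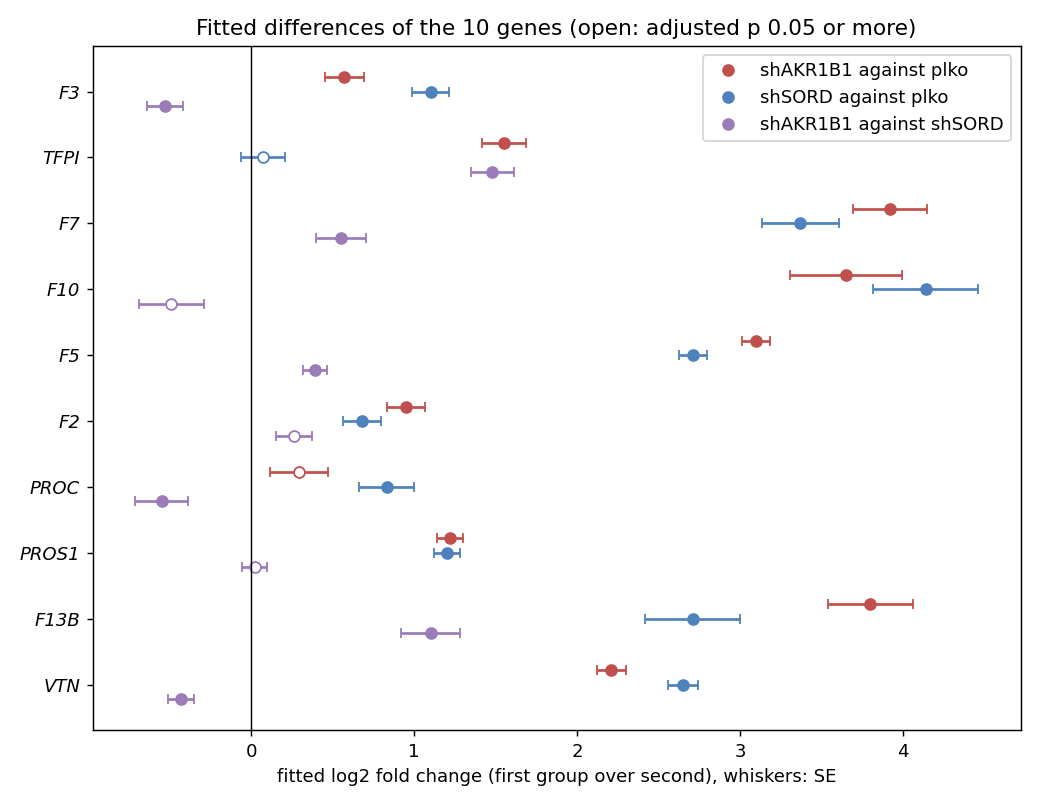
Fitted log2 fold changes of the 10 genes (horizontal axis) for shAKR1B1 against plko, shSORD against plko and shAKR1B1 against shSORD, with SE as whiskers. Open points were not called: PROC with shAKR1B1, TFPI with shSORD, and F10, F2 and PROS1 between the knockdowns. F7, F10, F13B and F5 lie farthest to the right in both knockdowns against plko.

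**Figure D3:**
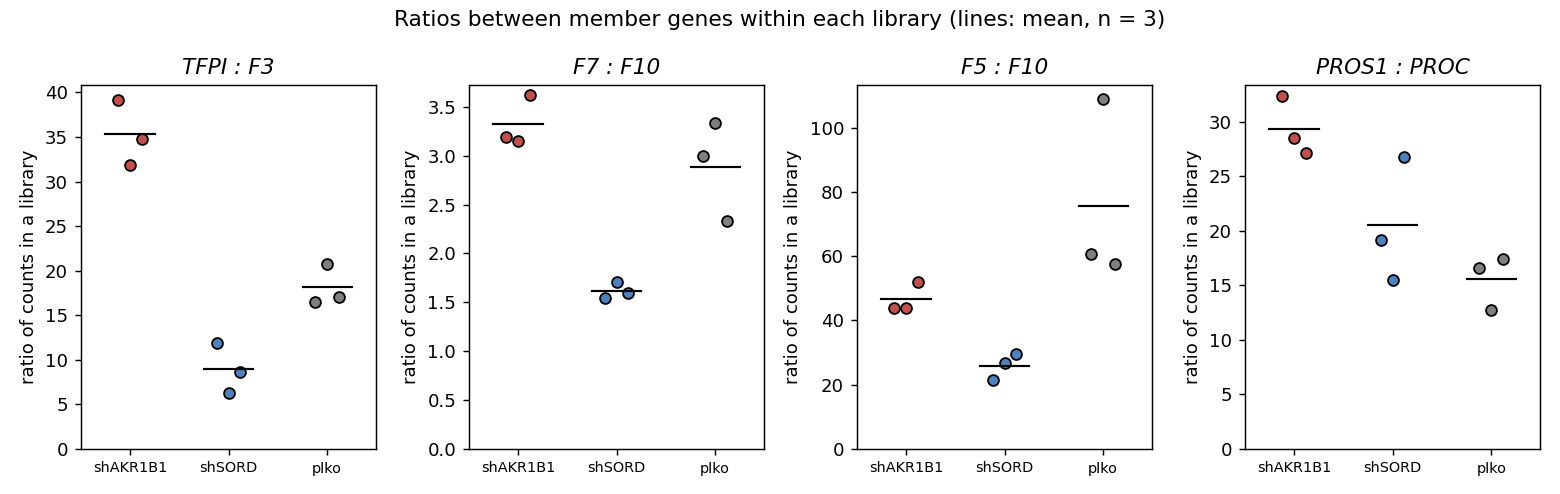
Ratio of the counts of 2 genes within each library (vertical axis, from 0) for TFPI over F3, F7 over F10, F5 over F10 and PROS1 over PROC. Points are libraries and lines are means (n = 3). TFPI over F3 separates all 3 groups, while F7 over F10 is lower with shSORD (1.54 to 1.71) than with shAKR1B1 (3.15 to 3.62) or plko (2.33 to 3.33).

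Set on one scale by dividing CPM by the exon length in kilobases, the 10 genes fell into abundant and rare ones. With shAKR1B1, VTN led at 24.4 ± 0.523 CPM per kilobase, followed by TFPI at 13.8 ± 1.4, PROS1 at 13.2 ± 0.849 and F5 at 10.3 ± 0.567 (SD, n = 3), and F10 was lowest at 0.679 ± 0.0958. TFPI and PROS1 overlapped there, as did F7 and F13B. With shSORD the order was VTN at 33.0 ± 4.26, PROS1 at 13 ± 1.42, F5 at 7.88 ± 0.874 and TFPI at 4.97 ± 1.27 CPM per kilobase, with F13B lowest at 0.544 ± 0.0963. F7 at 0.949 ± 0.231 and F10 at 0.953 ± 0.264 could not be ordered with shSORD. In plko, PROS1 at 5.66 ± 0.138, VTN at 5.26 ± 0.284 and TFPI at 4.74 ± 0.0512 CPM per kilobase led without overlap, and F7 at 0.091 ± 0.0198, F13B at 0.0811 ± 0.0445 and F10 at 0.0524 ± 0.0164 came last, F13B overlapping both of the others. Among 16447 tested genes with a length, VTN was at percentile 90.4 with shAKR1B1, 93.3 with shSORD and 59.9 with plko. The exon length used for TFPI, 11714 bases, adds up the exons of all its isoforms, so its value per kilobase is low for any shorter isoform.

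The libraries of a group varied by different amounts from gene to gene. The coefficient of variation ran from 0.99% (F3) to 14.1% (F10) with shAKR1B1, from 6.68% (F2) to 27.8% (F10) with shSORD and from 1.08% (TFPI) to 54.9% (F13B) with plko. TFPI, F7 and PROC varied by 25.6%, 24.4% and 21.3% with shSORD although TFPI had 1713 or more counts in each of these libraries. In shSORD replicate 1, TFPI, F7, F10, F5, PROC, PROS1, F13B and VTN were at the group's highest value, and F3 and F2 at its lowest.

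For each gene the 3 other genes with the most similar profile over the 9 libraries were listed by the root mean square difference of centred log2(CPM + 0.5), among 13221 genes with a mean of at least 50 counts. PROS1 had the nearest of all, SPATA6L at 0.042 log2 units, and its next was ANXA4 at 0.072. F5 was followed by DOCK8 (0.113), TM4SF4 (0.115) and VIL1 (0.121), the last a structural protein of the intestinal brush border, at 31.8 CPM with shAKR1B1, 23.1 CPM with shSORD and 2.92 CPM with plko. For F7 the named neighbours were ANKS4B (0.139) and NHERF4 (0.154), and for F10 they were LINC00482 (0.123), TNS1 (0.158) and EPCAM (0.159). TFPI lay nearest to the bicarbonate transporter gene SLC4A4 (0.125), which averaged 30.5 CPM with shAKR1B1, 11.4 CPM with shSORD and 12 CPM with plko. F13B lay nearest to SLC44A4 (0.118), VTN to COL12A1 (0.11), F3 to MIR23AHG (0.087), F2 to C12orf75 (0.064) and PROC to KLHL17 (0.107). None of the 10 genes was among the 3 nearest of another. The offset of 0.5 CPM exceeds the plko means of F7 (0.345 CPM), F13B (0.235 CPM) and F10 (0.123 CPM) and shrinks their differences from plko. EPCAM, listed for F10, differed from plko 3.43-fold with shAKR1B1 and 5.11-fold with shSORD, against 12.6-fold and 17.7-fold for F10. Such a likeness is a description.

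The genes beside the members on the chromosome, by RefSeq order, were read as well. Next to TFPI, the receptor gene CALCRL had a log2 fold change of 3.06 (SE 0.237, adjusted p = 4.93e-08) with shAKR1B1 and 0.98 (SE 0.299, adjusted p = 0.0118) with shSORD, at 2.97, 2.64 and 2.25 CPM with shAKR1B1, 0.777, 0.561 and 0.502 CPM with shSORD and 0.221, 0.398 and 0.305 CPM with plko. It was thus high in the same group as TFPI. Beside F3, ABCD3 was not called with shAKR1B1 (0.19) and was higher by 0.23 with shSORD (adjusted p = 0.0341), with overlapping libraries, and the choline transporter-like gene SLC44A3 had 1.03 (SE 0.116, adjusted p = 2.7e-06) with shAKR1B1 and 1.53 (SE 0.113, adjusted p = 4.29e-08) with shSORD, the order seen for F3. ZNF408 beside F2 went the other way from its neighbour, with -0.38 (SE 0.0964, adjusted p = 0.00355) with shAKR1B1 and -0.32 (SE 0.0958, adjusted p = 0.011) with shSORD. GULP1 beside TFPI, SLC19A2 beside F5 and ASPM beside F13B were called higher with shAKR1B1, by 0.66 (adjusted p = 2.98e-06), 0.31 (adjusted p = 0.0106) and 0.51 (adjusted p = 0.00272), and were not called with shSORD. IWS1 beside PROC and CKAP5 beside F2 were called in neither knockdown against plko.

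Beyond the 10 genes, 58 other genes of coagulation and its surroundings were read from 8 lists, and 41 of them passed the filter. Among these, KNG1, SERPINA10 and CPB2 lay below the cutoff of 0.254 CPM in every plko library and passed through the knockdown groups. CPB2 passed through shAKR1B1 alone, with at most 0.201 CPM in any shSORD library. Nothing is read from the calls of these genes. With shAKR1B1, 19 of the 41 were called higher than plko (46.3%, against 27.8% of all tested genes) and 11 lower (26.8%, against 29.6%), with a median log2 fold change of 0.0. With shSORD, 20 were higher (48.8%, against 27.5%) and 8 lower (19.5%, against 29.0%), with a median of 0.14. Under plain library totals the shSORD counts were 24 higher and 5 lower. Between the knockdowns 12 were higher and 12 lower (29.3% each, against 15.5% and 15.1%). The lists were drawn up with earlier results of these data known.

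**Figure D4:**
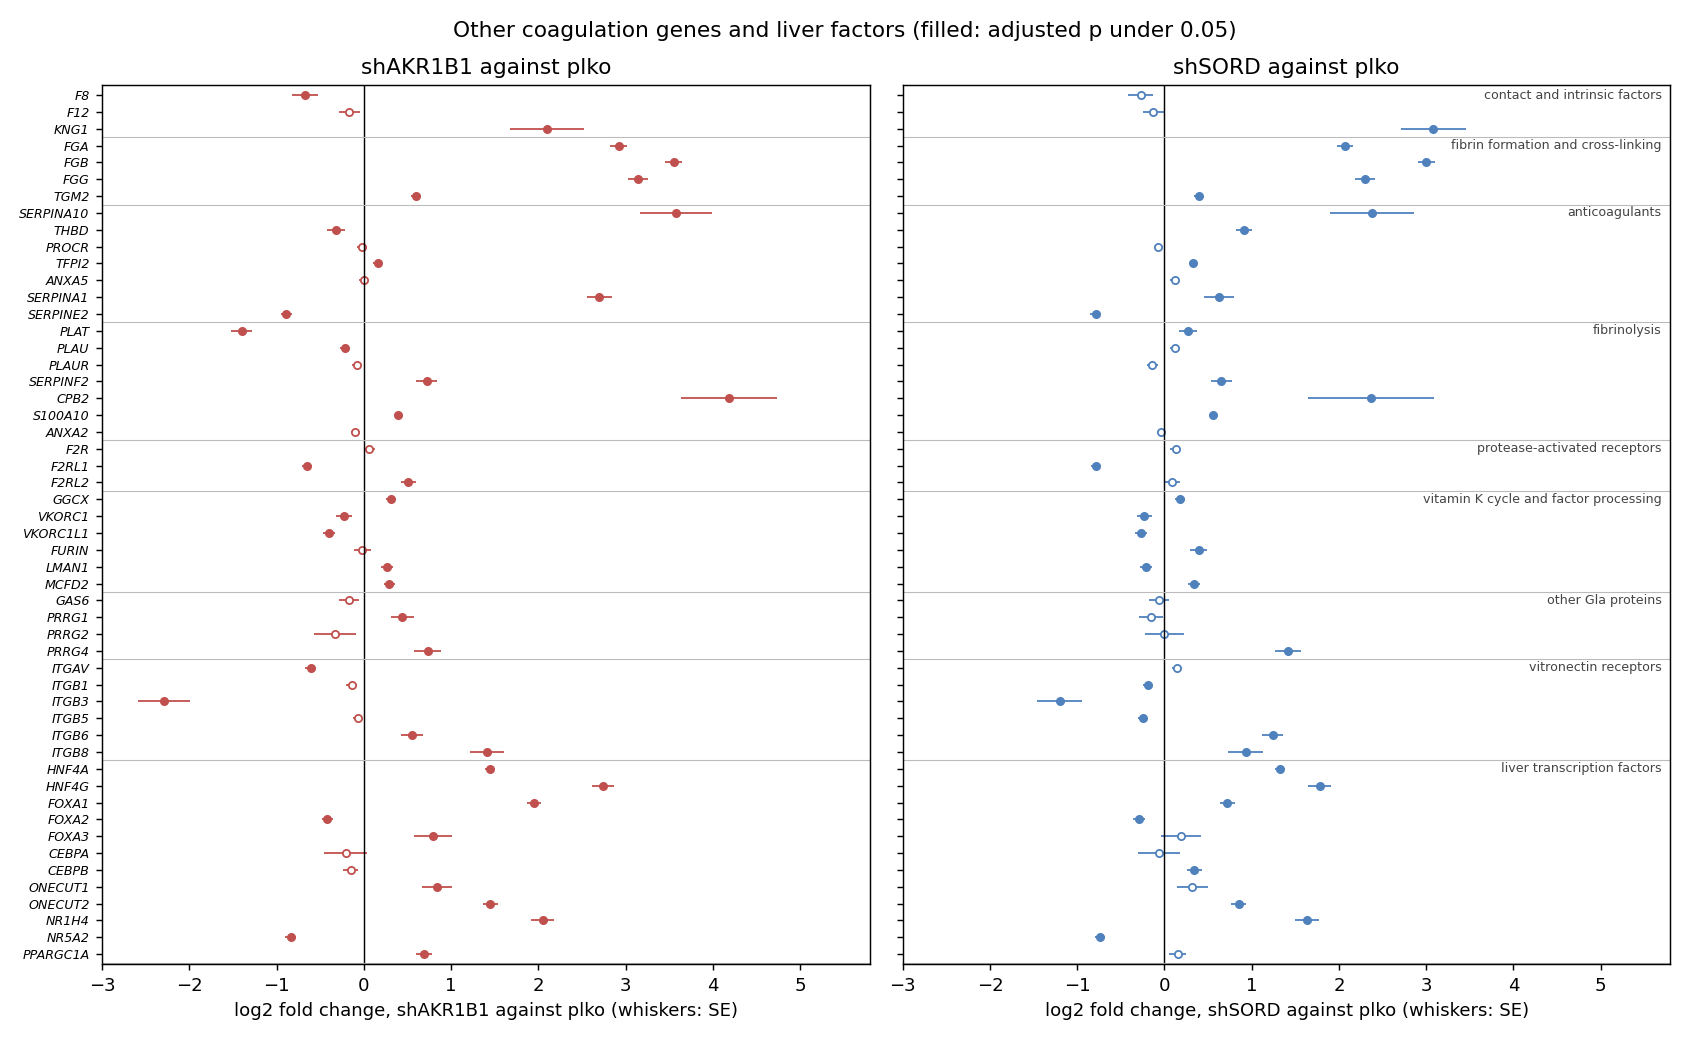
Fitted log2 fold changes with SE of tested genes of 8 coagulation lists and of liver transcription factors, for shAKR1B1 against plko (left panel) and shSORD against plko (right panel). Filled points were called. KNG1, the 3 fibrinogen chains, SERPINA10 and CPB2 lie at 2.07 or more in both panels, KNG1, SERPINA10 and CPB2 on at most 6 counts per plko library.

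The fibrin genes shared the members' direction. FGB, a chain of fibrinogen, stood at 382.5, 355.1 and 301.2 CPM with shAKR1B1, 269.4, 219.8 and 217.8 CPM with shSORD and 29.7, 29.8 and 29.2 CPM with plko, with log2 fold changes of 3.55 (SE 0.0987, adjusted p = 1.04e-12) with shAKR1B1 and 3.00 (SE 0.0969, adjusted p = 1.01e-11) with shSORD. FGA changed by 2.92 (SE 0.0977) with shAKR1B1 and 2.07 (SE 0.0956) with shSORD, and FGG by 3.14 (SE 0.113) with shAKR1B1 and 2.30 (SE 0.111) with shSORD. All 3 chains were called higher with shAKR1B1 than with shSORD, by 0.55 to 0.84. TGM2, a tissue transglutaminase, rose by 0.60 (SE 0.0551, adjusted p = 3.21e-07) with shAKR1B1 and 0.39 (SE 0.055, adjusted p = 3e-05) with shSORD. Of the 5 genes of the list only F13A1 was below the filter.

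The contact and intrinsic factors were mostly missing. F9, F11, KLKB1 and VWF were below the filter, and F11 had 0 counts in every library. KNG1, the kininogen, had 14, 29 and 20 counts with shAKR1B1, 51, 48 and 29 with shSORD and 5, 3 and 6 with plko, and was called higher in both (adjusted p = 0.000639 with shAKR1B1 and 6.54e-06 with shSORD). F8, the cofactor related to F5, averaged 3.97 CPM with shAKR1B1, 5.25 CPM with shSORD and 6.32 CPM with plko. It fell by 0.67 on the log2 scale with shAKR1B1 (adjusted p = 0.00136), and with shSORD the change was -0.27 (adjusted p = 0.129), which was called without shSORD replicate 3 (-0.47). F12 was called in neither (adjusted p = 0.255 with shAKR1B1 and 0.368 with shSORD), except with shSORD when its replicate 2 was left out (-0.28).

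Among 12 other anticoagulants 7 were tested, of which 3 rose and 2 fell with shAKR1B1, and 4 rose and 1 fell with shSORD. Counts this small are to be read against the shares over all tested genes, 27.8% higher and 29.6% lower with shAKR1B1 and 27.5% higher and 29.0% lower with shSORD. THBD, the thrombin receptor through which protein C is activated, went opposite ways, at 5.24, 5.16 and 4.87 CPM with shAKR1B1, 10.9, 12.9 and 12.1 CPM with shSORD and 6.77, 6.13 and 6.16 CPM with plko. Its log2 fold change was -0.32 (SE 0.098, adjusted p = 0.0116) with shAKR1B1 and 0.91 (SE 0.0907, adjusted p = 8.93e-07) with shSORD, and -1.23 (SE 0.0928, adjusted p = 1.3e-07) between them. The shAKR1B1 call was lost without plko replicate 1 (-0.28). PROCR, the endothelial protein C receptor gene, was called in neither (adjusted p = 0.735 with shAKR1B1 and 0.286 with shSORD). SERPINA1, the gene of alpha-1 antitrypsin, rose by 2.70 (SE 0.145, adjusted p = 1.05e-09) with shAKR1B1 and 0.63 (SE 0.172, adjusted p = 0.00597) with shSORD. SERPINA10, which inhibits active factor X, had 40, 40 and 34 counts with shAKR1B1, 20, 17 and 14 with shSORD and 2, 1 and 6 with plko, and was called higher in both (adjusted p = 3.12e-06 with shAKR1B1 and 0.000641 with shSORD). SERPINE2, a thrombin inhibitor of tissues, fell by 0.89 (SE 0.061, adjusted p = 1.48e-08) with shAKR1B1 and by 0.79 (SE 0.0607, adjusted p = 6.48e-08) with shSORD. Antithrombin (SERPINC1) and heparin cofactor II (SERPIND1) were below the filter.

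In fibrinolysis 8 of 11 genes were tested, with 3 higher and 3 lower with shAKR1B1, and 5 called, each higher, with shSORD, against 27.8% higher and 29.6% lower with shAKR1B1 and 27.5% higher and 29.0% lower with shSORD over all tested genes. PLAT, the tissue plasminogen activator, fell by 1.40 (SE 0.118, adjusted p = 1.23e-07) with shAKR1B1. With shSORD it was 0.27 (SE 0.101, adjusted p = 0.0357), a call that DESeq2 did not make (adjusted p = 0.119) and that was lost with no expression filter (0.26), without any 1 plko library (0.21 to 0.31) or shSORD replicate 2 (0.22). CPB2, a carboxypeptidase that slows clot lysis, had 17, 17 and 29 counts with shAKR1B1, 5, 5 and 8 with shSORD and 1, 0 and 2 with plko, and was called higher in both (adjusted p = 1.24e-05 with shAKR1B1 and 0.0114 with shSORD). PLG, plasminogen itself, was below the filter.

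The carboxylase of the vitamin K-dependent members and the vitamin K reductases were present and changed by small amounts. GGCX, the carboxylase, averaged 67.4 CPM with shAKR1B1, 61.6 CPM with shSORD and 54.5 CPM with plko, with log2 fold changes of 0.31 (adjusted p = 0.000262) with shAKR1B1 and 0.18 (adjusted p = 0.0143) with shSORD. The shSORD call was lost with no expression filter (0.17) and without plko replicate 2 (0.16). VKORC1L1, a vitamin K reductase, fell by 0.40 (adjusted p = 0.000209) with shAKR1B1 and by 0.27 (adjusted p = 0.0047) with shSORD. VKORC1, the other such reductase, was called lower by 0.23 with shAKR1B1 (adjusted p = 0.0386) and with shSORD (adjusted p = 0.0348). Both calls were lost with DESeq2, plain library totals and a stricter filter. LMAN1 and MCFD2 form the receptor that ferries F5 and F8 proteins out of the endoplasmic reticulum. MCFD2 averaged 412.9 CPM with shAKR1B1, 426.9 CPM with shSORD and 336.7 CPM with plko and was called higher in both, while LMAN1 rose by 0.26 (adjusted p = 0.00463) with shAKR1B1 and fell by 0.21 (adjusted p = 0.0163) with shSORD, the second call being lost under plain library totals (-0.15) and without plko replicate 3 (-0.19).

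Receptors for the products of the cascade were measured too. F2RL1, the receptor cleaved by the F7 and F10 proteases, fell by 0.65 (SE 0.0565, adjusted p = 1.64e-07) with shAKR1B1 and by 0.79 (SE 0.0567, adjusted p = 3.25e-08) with shSORD, while the thrombin receptor F2R was called in neither. With shSORD, F2R was called under plain library totals (0.20), a stricter filter (0.17) and without shSORD replicate 2 (0.19). F2RL3 had 0 counts. Of 6 vitronectin receptor subunits 2 rose and 2 fell with shAKR1B1, and 2 rose and 3 fell with shSORD, read against those same shares. ITGAV, the alpha chain of these receptors, averaged 150.3 CPM with shAKR1B1, 251.9 CPM with shSORD and 229.0 CPM with plko. It fell by 0.61 (SE 0.0595, adjusted p = 6.18e-07) with shAKR1B1, and with shSORD its change was 0.14 (SE 0.059, adjusted p = 0.0595), a value called under RLE scaling (0.14), plain library totals (0.20), a stricter filter (0.18), with the replicate block (0.13) and without shSORD replicate 2 (0.19). ITGB6 rose by 0.55 (adjusted p = 0.00191) with shAKR1B1 and 1.24 (adjusted p = 8.85e-07) with shSORD, and ITGB3 fell by 2.29 (adjusted p = 1.11e-05) with shAKR1B1 and by 1.2 (adjusted p = 0.000995) with shSORD, on 5 to 18 counts with shAKR1B1, 17 to 29 with shSORD and 51 in each plko library.

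Transcription factors known for liver gene control were read as a list. Of 13 tested, 9 were called higher and 2 lower with shAKR1B1 (median log2 fold change 0.84), and 7 higher and 2 lower with shSORD (median 0.34). Over all tested genes 27.8% were higher and 29.6% lower with shAKR1B1, and 27.5% higher and 29.0% lower with shSORD. HNF4A stood at 92.6, 92.6 and 97.0 CPM with shAKR1B1, 88.0, 89.7 and 82.0 CPM with shSORD and 35.1, 33.7 and 35.1 CPM with plko. It changed by 1.44 (SE 0.0573, adjusted p = 4.16e-11) with shAKR1B1 and 1.32 (SE 0.0573, adjusted p = 1.72e-10) with shSORD. FOXA1 was higher by 1.95 (SE 0.0818, adjusted p = 7.19e-11) with shAKR1B1 and 0.72 (SE 0.0831, adjusted p = 4.01e-06) with shSORD, and FOXA2 was called lower in both. Whether these factors act on the 10 genes was not tested.

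Markers of other cell types were read beside these results. Of 8 hepatocyte markers 4 were tested. With shAKR1B1 4 were called higher, against 27.8% of all tested genes, and with shSORD 3, against 27.5%. The list summed to 55.3 to 65.3 CPM with shAKR1B1, 35.6 to 48.2 CPM with shSORD and 19.3 to 21.0 CPM with plko. APOH carried most of that sum, at 52.8, 49.7 and 45.4 CPM with shAKR1B1, 33.0, 24.0 and 23.0 CPM with shSORD and 14.0, 13.6 and 14.2 CPM with plko. ALB, the defining transcript of hepatocytes, was low in every library, with 22, 16 and 21 counts with shAKR1B1, 4, 1 and 5 with shSORD and 1 in each plko library. It was called higher with shAKR1B1 (adjusted p = 1.72e-05), and with shSORD its adjusted p was 0.12, or 0.0415 without shSORD replicate 2. ALB passed the filter only through the shAKR1B1 libraries, where it is high, so nothing is read from its calls. The 3 endothelial markers summed to at most 0.184 CPM and of 4 megakaryocyte markers only ITGA2B passed the filter, and it was not called. The leukocyte list summed to 5.13 to 5.85 CPM with shAKR1B1, 2.86 to 4.51 CPM with shSORD and 8.09 to 9.75 CPM with plko, with CD3E at 0. That sum was mostly CD14, at 4.96 CPM on average with shAKR1B1, 3.39 CPM with shSORD and 8.81 CPM with plko, while LYZ, at 19 to 27 counts with shAKR1B1, 3 to 11 with shSORD and 1 to 2 with plko, was called higher in both (adjusted p = 1.2e-05 with shAKR1B1 and 0.00604 with shSORD). LYZ passed the filter through the shAKR1B1 libraries, so nothing is read from its calls. The 4 fibroblast markers were all called higher with shSORD, against 27.5% of all tested genes. They summed to 33.9 to 55.1 CPM with shSORD, 8.63 to 9.97 CPM with shAKR1B1 and 14.5 to 16.3 CPM with plko. These sums were mostly COL1A1, at 36.4 CPM on average with shSORD. The others were low and uneven among shSORD libraries, at 43 to 217 counts for COL1A2, 25 to 111 for COL3A1 and 16 to 46 for PDGFRB. They passed the filter through the shSORD libraries, so nothing is read from their calls. The part of these markers in the levels of the 10 genes was not tested.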

How the data were processed

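Poly(A) RNA of 9 A549 cultures was measured with a stranded kit (TruSeq stranded mRNA), per the labels' protocols. The deposited table holds the authors' raw read counts per Ensembl gene, without normalization. The submitters' processing notes name cutadapt 1.9.1, STAR 2.5.2b, featureCounts 1.5.1 and DESeq2 1.12.3 and the build GRCh37. The annotation release, strand setting and handling of multi-mapping reads were not given in the sources used here.

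Symbols matched 51996 of 57905 identifiers. Groups were taken from titles and treatment labels. edgeR 4.0.16 in R 4.3.3 was fitted to all 9 libraries with 1 mean per group, TMM scaling, the default filter (10 counts, which kept 16916 genes), a quasi-likelihood test and Benjamini-Hochberg adjustment with a threshold of 0.05. Adjusted p-values come from this test unless DESeq2 is named. Fitted folds used a prior count of 0.125, and SE is the absolute log2 fold change over the square root of F. The script was tested on simulated data. Exon lengths came from GENCODE 29 and promoter windows and gene order from RefSeq (GRCh38.p14), another build than that of the counts, so gene coordinates are not printed for the counts. All 10 genes had a window, and PROC had 2.

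The genes and lists were chosen with earlier results of these data known. Named genes are the members, the targets, the listed pathway and marker genes, the 3 nearest profiles per member and the chromosome neighbours. PECAM1 was not analysed here. Some listed genes and neighbours enter the counts but are not reported here by name. Alternatives were DESeq2 1.42.0, RLE scaling, plain library totals, no filter, a stricter filter (1 CPM in 3 libraries), only the groups compared, a replicate block and leaving out each library. Libraries with the same number in the shAKR1B1 and shSORD groups deviated together (correlations of deviations 0.102, 0.193 and 0.144). The numbers may therefore pair these 2 groups, a reading that comes from the data. Libraries of different numbers were not compared in this way. The main fit has no block, so its SE, intervals and calls between the knockdowns do not use such a pairing. The replicate block was applied to all 3 groups, plko included. Libraries within a group differed by more than sampling noise (chi-square per degree of freedom 2.43 to 27.5, the highest between shSORD replicates 2 and 3).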

Additional observations from a re-analysis of the deposited data

Results flagged for a closer look

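For 7 of the 10 genes a difference was called in the direct comparison of shAKR1B1 with shSORD, 4 higher and 3 lower, where 15.5% of all tested genes were called higher and 15.1% lower. The log2 difference was 1.48 for TFPI, 1.10 for F13B, 0.55 for F7 and 0.39 for F5, higher with shAKR1B1. It was -0.55 for PROC, -0.53 for F3 and -0.43 for VTN, lower with shAKR1B1. The genes were chosen on these libraries, so these values are descriptions. The PROC and F7 calls were lost when single libraries were left out, as given with those genes.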

How the results depend on the processing

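The 30 fold changes of the 10 genes were recomputed under 13 alternatives each. Of these 390 values, 381 kept their side of the threshold, 5 lost a call and 4 gained one. All 9 changes are calls of TFPI with shSORD or of F7, F10 and PROC between the knockdowns, and are given with those genes. No called change reversed its direction. Uncalled changes near 0 did change sign: TFPI with shSORD (0.07, at lowest -0.08) and PROS1 between the knockdowns (0.02, at lowest -0.07). Of the other coagulation genes, 20 were higher and 8 lower with shSORD, and 24 higher and 5 lower under plain library totals. With the replicate block, F10 between the knockdowns was -0.47 and became called, and no other call of the 10 genes changed. The numbers did not pair plko with either knockdown (correlations of deviations -0.0285 to 0.0314). F10 and F13B rest on 3 to 15 counts per plko library. Depth limits their folds, and the wide intervals of their ratios cover counting error only.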
